A study of Astyanax mexicanus with 96 samples.

Results

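The 60 genes described here encode the subunits of respiratory complexes II to V that the nuclear genome carries, with cytochrome c and the assembly factors of complex II. They were chosen by symbol alone, from 27420 genes in the count table: symbols starting with sdha to sdhd, sdhaf, uqcr, cycs, cox4 to cox8 or atp5, and cyc1. This gave 4 subunits of complex II, 4 of its assembly factors, 12 genes of complex III, 1 cytochrome c gene, 20 genes of complex IV and 19 of complex V. All 60 passed the filter on low counts, and for 16 of them the gene model overlapped another gene. The filter asked for 1 CPM in at least 1 library. ATP5PF passed it although it was nearly silent, with 0 reads in 57 libraries and at most 5 in any library. Symbols that differ only in case name separate genes here, so that atp5pd (chromosome 2) and ATP5PD (chromosome 12) are a pair of genes, as are uqcrfs1 and UQCRFS1, cox7a2l and COX7A2L, and atp5pf and ATP5PF.

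The respiratory chain sits in the inner mitochondrial membrane. Complex II, succinate dehydrogenase, is also an enzyme of the citric acid cycle and hands the electrons of succinate to ubiquinone. Complex III passes them to cytochrome c, and complex IV, cytochrome c oxidase, passes them to oxygen. Complex V, the ATP synthase, makes ATP from the proton gradient that complexes I, III and IV build up. The heart beats on this ATP, and its muscle cells are packed with mitochondria. Several small subunits of complex IV exist in more than one form. In mammals COX7A1, COX8B and COX6A2 are the forms of heart and skeletal muscle, while COX7A2, COX8A and COX6A1 are found in most tissues, and COX4I2 is a form whose transcription responds to low oxygen. Subunits encoded by mitochondrial DNA, which include the catalytic core of complex IV, were not analysed here.

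The libraries come from heart ventricles of 2 populations of the Mexican tetra, Astyanax mexicanus, at 2 years of age: river-dwelling surface fish (SF), which rebuild heart muscle after injury, and blind Pachón cavefish (PC), which form a scar. Each of the 96 libraries is 1 ventricle of 1 fish, and the groups are the same in both populations. The 3 uninjured ventricles per population had no operation. The sham groups (5 ventricles each, at 6 h, 1 day and 3 days, written hps and dps) were touched with a probe at room temperature. The cryo-injured groups (5 ventricles each, at 6 h and 1, 3, 7, 14 and 30 days, written hpci and dpci) were touched at the tip of the ventricle with a copper probe cooled in liquid nitrogen. No sham group stands beside 7, 14 and 30 dpci, so those times are compared with uninjured ventricles and include whatever the operation itself did. The whole ventricle was taken, wound and remaining muscle together, so that fewer cells of a type and less RNA per cell cannot be told apart. Reads of both populations were aligned to a surface fish genome.

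Library totals ran from 672292 to 2586602 reads with a median of 1687721.5. Levels are given as CPM, counts scaled to a common library size, with edgeR's TMM factors correcting the library totals. The library preparation reads only the 3′ end of a transcript, so levels need no correction for gene length. Tests used edgeR's quasi-likelihood F test on raw counts of all 96 libraries, with p-values adjusted over all 18763 genes tested, and a gene passed at an adjusted p under 0.05 whatever its fold change. The model held 1 factor of unwanted variation (RUVg), estimated from the genes that varied less than the median gene. Of the 60 genes, 56 were among these 9381 control genes. Group means of the factor ran from 0.19 in SF at 6 hps to -0.18 in PC at 7 dpci, and counts of the 60 genes are therefore given with and without it, except where both gave the same number. Of 409 cases in which a gene passed in a comparison, 165 passed in the same direction without the factor, 53 had the other sign without it, and 0 passed in opposite directions in both fits. Cardiomyocyte markers (7 of 14 listed found) summed to 29766, 15319, 17120.0 and 40641 CPM in SF uninjured and at 1, 7 and 30 dpci, and to 35877, 21029.7, 14528 and 31929 CPM in PC. Fibroblast and epicardial markers (8 of 8) summed to 238 CPM in uninjured SF and 2307 at 7 dpci, and to 305 and 2219.7 in PC. Skeletal muscle markers (17 of 19) summed to 7743 and 4517 CPM in SF and to 5959 and 1606 in PC at the same conditions. Erythroid markers (4 of 8) summed to 8418, 47946 and 36236 CPM in SF uninjured, at 7 and at 30 dpci, and to 8873, 17624 and 9746 CPM in PC. Macrophage and neutrophil markers (6 of 8) summed to 65.9 and 598 CPM in SF uninjured and at 3 dpci, and to 78.6 and 551 in PC. The part of these cell type markers in the results was not tested.

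The first question was how much of the ventricle's messenger RNA these genes took up, and when. In SF the 60 genes held 7.65 ± 0.749% of all reads in uninjured ventricles (mean ± SD, n = 3), 5.70 ± 0.859% at 1 dpci and 5.61 ± 0.640% at 7 dpci (n = 5 each). By 14 dpci it held 7.69 ± 0.366% and by 30 dpci 9.30 ± 0.987%. In PC the share was 8.12 ± 0.0617% uninjured, 6.46 ± 0.873% at 1 dpci and 4.15 ± 0.794% at 7 dpci. By 14 dpci it was 5.84 ± 0.708% and by 30 dpci 7.85 ± 0.743%. These shares are descriptions without a test. With a TMM-scaled denominator they were 9.12 ± 0.722%, 4.97 ± 0.872%, 7.30 ± 0.296% and 11.4 ± 2.31% in SF uninjured and at 7, 14 and 30 dpci, and 9.97 ± 0.997%, 3.50 ± 1.05%, 5.80 ± 1.28% and 8.10 ± 1.1% in PC. At 14 dpci the mean share of PC was thus below the uninjured one on both scales, while that of SF was level with it in shares of reads and below it with TMM scaling.

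**Figure D1:**
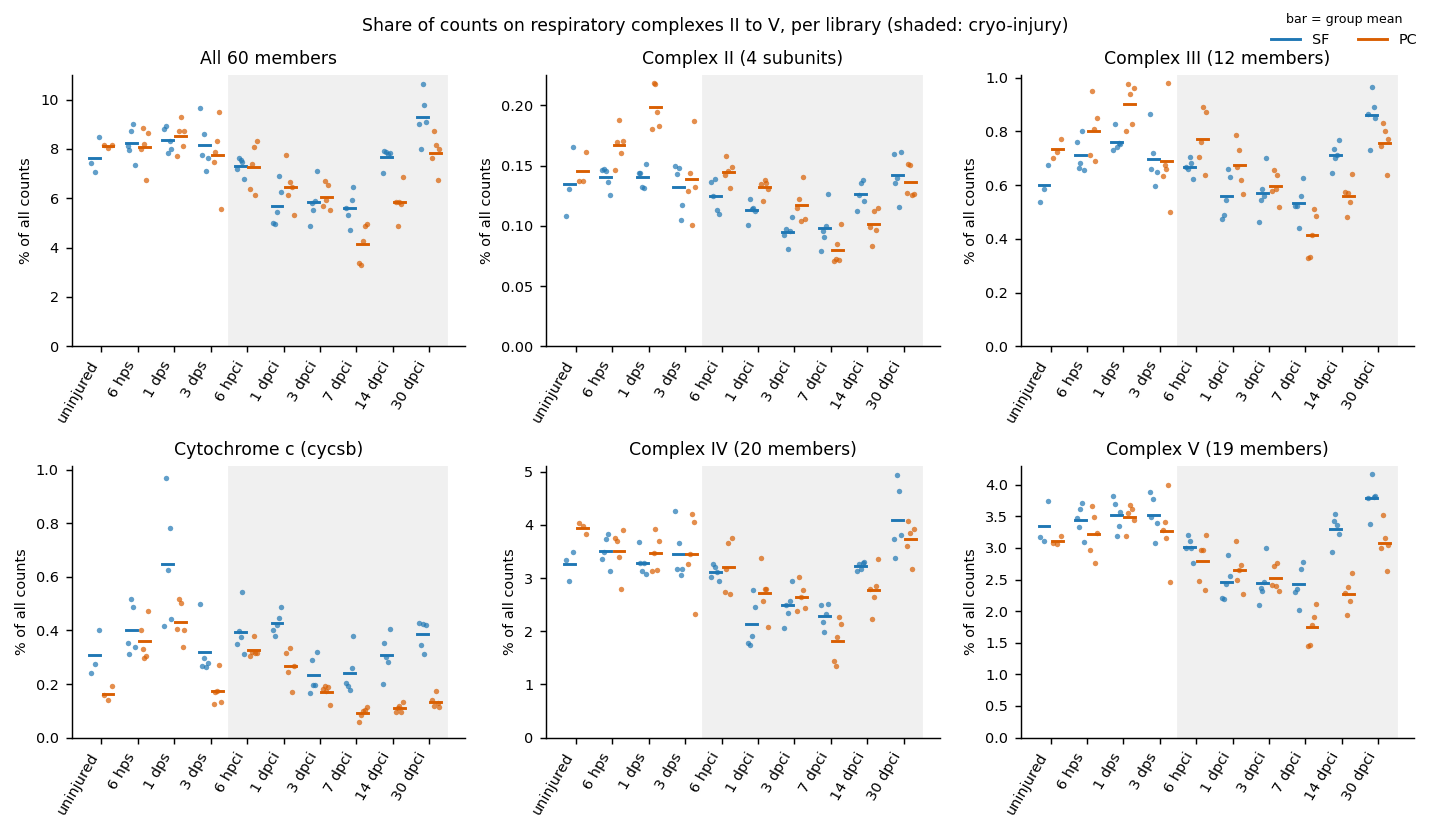
Percent of all reads of a library on all 60 genes and on the genes of complex II, complex III, cytochrome c, complex IV and complex V in SF and PC, by condition. Points are libraries and bars are group means. In PC each complex has its lowest group mean at 7 dpci, with complex IV at 1.82% and complex V at 1.74%.

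Complexes IV and V made up most of this share. Complex IV held 3.26 ± 0.286% of the reads in uninjured SF, 2.14 ± 0.461% at 1 dpci and 4.10 ± 0.654% at 30 dpci, and in PC 3.95 ± 0.111%, 2.72 ± 0.463% and 3.73 ± 0.354%, with 1.82 ± 0.405% at 7 dpci. Complex V held 3.34 ± 0.351% in uninjured SF and 3.11 ± 0.0707% in uninjured PC, and 2.43 ± 0.302% and 1.74 ± 0.289% at 7 dpci. Complex III ran at 0.599 ± 0.0713% and 0.733 ± 0.0362% uninjured and at 0.860 ± 0.0850% and 0.757 ± 0.0737% at 30 dpci. Complex II stood at 0.135 ± 0.0287% and 0.145 ± 0.0138% uninjured and 0.0983 ± 0.0175% and 0.0802 ± 0.0133% at 7 dpci. Its assembly factors had the smallest share, 0.0110 ± 0.000170% in uninjured SF and 0.0210 ± 0.00524% in uninjured PC. The single cytochrome c gene had a higher mean share at 1 dps than uninjured. It held 0.647 ± 0.233% in SF at 1 dps against 0.307 ± 0.0844% uninjured, and 0.433 ± 0.0757% against 0.164 ± 0.0264% in PC. The mean share of complex III was higher at 1 dps too, at 0.762 ± 0.0386% in SF and 0.902 ± 0.0805% in PC. Complex IV stood at 3.29 ± 0.234% and 3.47 ± 0.346% there.

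Taken gene by gene, the lowest group mean of the 10 conditions lay at 7 dpci for 52 of 60 genes in PC, and uninjured ventricles or 1 dps had the highest mean for 24 and 19 genes. In SF the lowest mean was spread over 7 dpci (22 genes), 1 dpci (21), uninjured ventricles (9) and 3 dpci (8), and the highest mean lay at 30 dpci for 34 genes. Most genes thus had their lowest mean after injury in both populations, at the same time for nearly all of them in PC and at different times in SF. The same count was not made over all genes, so these numbers only describe the 60.

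**Figure D2:**
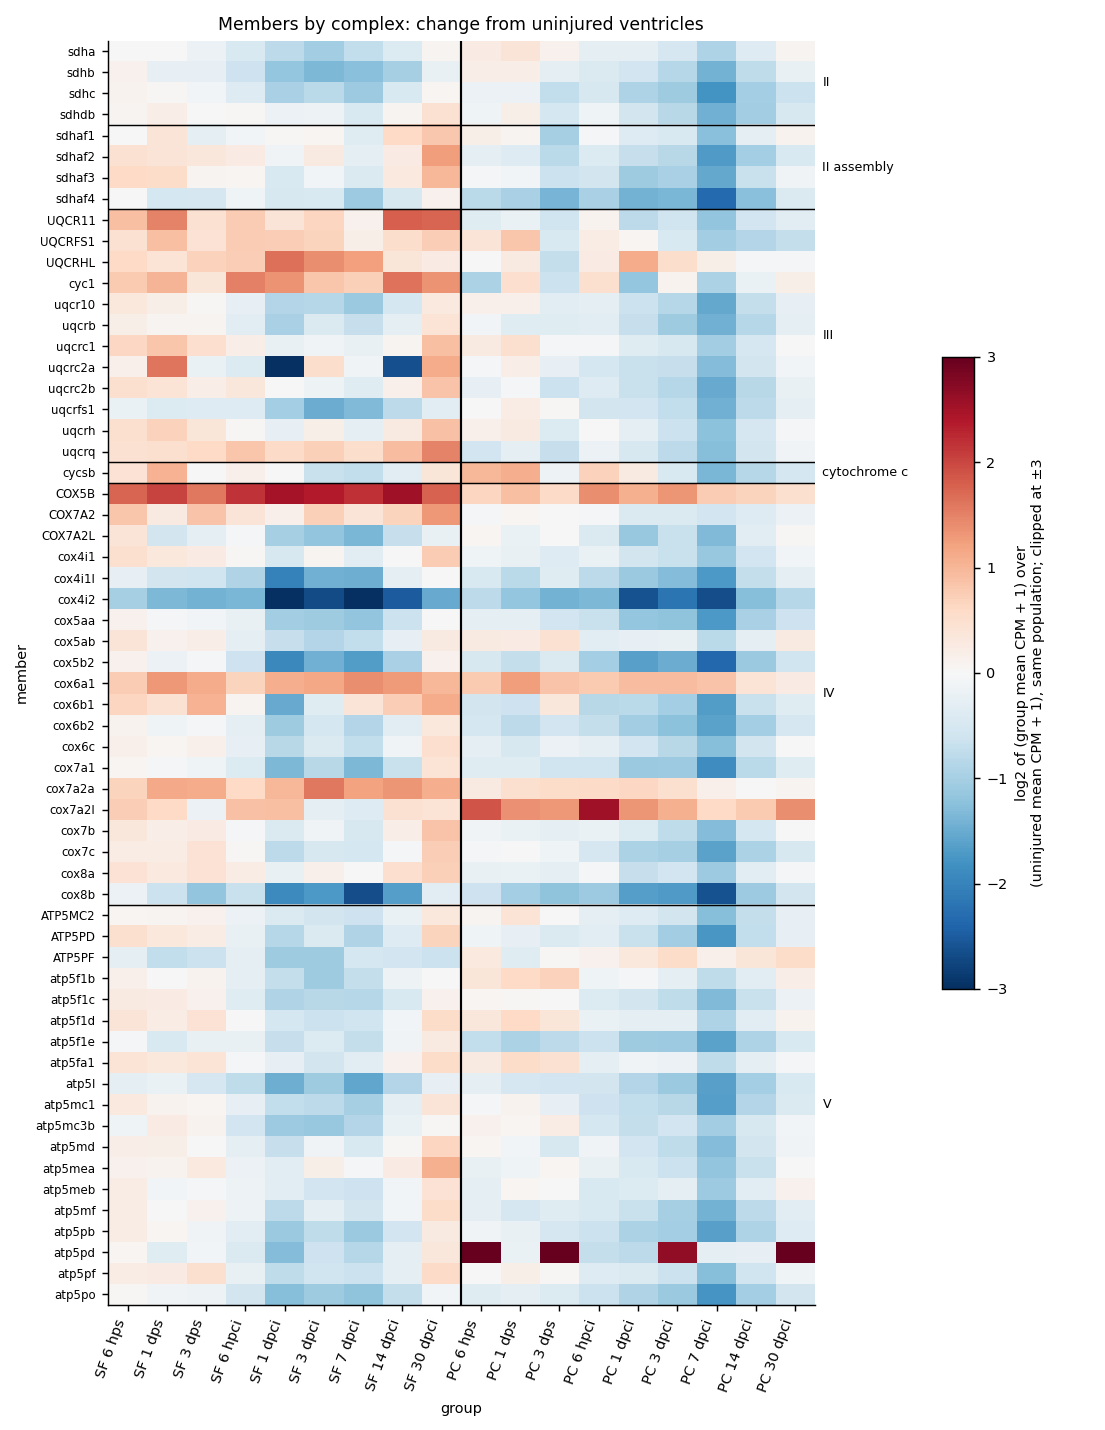
Log2 of the mean CPM plus 1 of each gene in each group over that of the uninjured group of the same population, clipped at 3 in either direction; rows are the 60 genes by complex, columns the conditions of SF and PC. The 7 dpci column of PC is low over nearly the whole height. Genes such as cox7a2a, cox6a1 and COX5B stand above uninjured at 7 dpci in both populations.

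In complex II sdhb and sdhdb, its most abundant genes, had lower mean CPM at 7 dpci than uninjured in both populations. sdhb, the iron-sulfur subunit (chromosome 22), measured 302, 527 and 554 CPM in uninjured SF and 122, 165, 174, 218 and 285 at 7 dpci. In PC it measured 369, 428 and 449 uninjured and 114, 117, 138, 153 and 256 at 7 dpci. The groups did not overlap in either population. With the factor sdhb passed in neither population, and 0 of the 4 subunit genes passed in SF beside 3.3% of all genes. Without it 3 of the 4 were lower in SF beside 16.0%, and all 4 in PC beside 13.8%. sdhdb, a membrane anchor (chromosome 2), went from 500.1, 545 and 587 CPM uninjured to 132, 156, 206, 233 and 272 at 7 dpci in PC, where its log2 change was -0.83 ± 0.22 (SE, adjusted p 0.021) with the factor and -1.45 ± 0.20 (adjusted p 1.3e-08) without it. In SF sdhdb measured 208, 221, 279, 299 and 368 CPM at 7 dpci, and this group overlapped the uninjured one. At 30 dpci sdhdb stood at 441, 479, 538, 556 and 603 CPM in SF, above all 3 uninjured libraries (347, 354 and 439), and at 304, 323, 364, 443 and 508 in PC. sdhc, the other anchor, passed in PC at 7 dpci too (-0.89 ± 0.21 SE, adjusted p 0.0056).

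Among the assembly factors, which fit the flavin and the iron-sulfur clusters into complex II, sdhaf4 had the largest fall after injury in PC. It was lower after a sham operation there too. sdhaf4 (chromosome 25) measured 98.3, 143 and 152 CPM in uninjured PC, 17.3, 19.8, 20.7, 30.4 and 37.6 at 7 dpci, 28.7, 50.8, 59.4, 59.96 and 71.4 at 14 dpci and 78.1, 96.3, 98.6, 102 and 109 at 30 dpci. All 5 libraries at 7 dpci and all 5 at 14 dpci lay below the lowest uninjured one. So did all 5 sham libraries at 3 dps, where sdhaf4 measured 29.5, 42.1, 44.1, 53.5 and 75.7 CPM in PC. Its log2 change at 3 dps against uninjured was -1.23 ± 0.24 (SE, adjusted p 0.0012) with the factor and -1.42 (adjusted p 5.0e-05) without it. Its log2 change at 7 dpci was -1.84 ± 0.30 (SE, adjusted p 2.1e-05) with the factor and -2.39 ± 0.25 (adjusted p 2.8e-12) without it, the largest fall of the 13 genes that passed there with the factor. In SF it measured 51.2, 58.2 and 61.8 CPM uninjured and 19.3, 22.0, 25.8, 27.0 and 37.7 at 7 dpci. sdhaf2 (chromosome 5) held 18, 48, 53, 63 and 65 reads in the libraries of PC at 7 dpci. It stood at 114 ± 30.6 CPM in SF at 30 dpci against 47.4 ± 7.61 uninjured, and at 59.8 ± 13.5 against 82.2 ± 17.9 in PC.

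In complex III the most abundant genes were uqcrb and uqcr10. uqcrb lies on chromosome 23, and its model overlaps lrrc14b on the other strand. It measured 2408 ± 18.0 CPM in uninjured SF, 1497 ± 262 at 7 dpci and 3216 ± 904 at 30 dpci. The PC values in the same order were 3059 ± 308, 1121 ± 566 and 2537 ± 364. uqcr10 (chromosome 14) measured 1548 ± 236, 716 ± 224 and 1899 ± 195 CPM in SF and 1379 ± 75.9, 473 ± 119.8 and 1164 ± 179 in PC. Both were low at 7 dpci in either population.

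UQCR11 and uqcrq, small subunits of complex III, were higher at 30 dpci than uninjured in SF and not in PC. UQCR11 (chromosome 17, 9397093 to 9399342, minus strand of assembly Mexican tetra 2.0) measured 98.2, 135 and 177 CPM in uninjured SF, 80.3, 128, 136, 167 and 237 at 7 dpci, 388, 433, 468, 505 and 604 at 14 dpci and 305, 378, 410.0, 569 and 634 at 30 dpci. In PC it measured 402, 480.1 and 515 uninjured, 99.3, 103, 191, 302 and 329 at 7 dpci, 278, 294, 315, 329.7 and 340.2 at 14 dpci and 266, 353, 398, 400.1 and 448 at 30 dpci. Every SF library at 14 and 30 dpci lay above every uninjured SF library, and every PC library at 14 dpci lay below every uninjured PC library. The log2 change in SF was 1.94 ± 0.36 (SE, adjusted p 2.4e-04) with the factor and 1.81 ± 0.31 (adjusted p 1.2e-05) without it at 14 dpci. At 30 dpci it was 1.78 ± 0.31 (SE, adjusted p 6.9e-05) with the factor and 1.75 ± 0.31 (adjusted p 8.6e-05) without it. uqcrq (chromosome 24, 13972638 to 13978549, minus strand) measured 363, 378 and 602 CPM in uninjured SF, 491, 509, 632, 750.0 and 821 at 7 dpci and 941, 959, 1231, 1339 and 1831 at 30 dpci. In PC it measured 996, 1118 and 1417 uninjured, 334, 344, 459, 567 and 723 at 7 dpci and 811, 1054, 1179.8, 1203 and 1221 at 30 dpci. Uninjured SF libraries were thus below uninjured PC libraries for both genes, and at 30 dpci the ranges of the populations overlapped. For UQCR11 the uninjured difference, SF against PC, was log2 -1.89 ± 0.38 (SE, adjusted p 2.9e-04) with the factor and -1.76 (adjusted p 7.4e-05) without it. Of the 10 conditions of SF, uninjured ventricles had the lowest group mean for both genes. The means of the sham groups thus lay above it too. The only one of the 60 genes that passed as higher in SF at 1 dpci against 1 dps was UQCRHL, a hinge protein gene with few reads (13, 16, 18, 19 and 23 at 1 dps and 22, 58, 71, 76 and 104 at 1 dpci). Its log2 change was 1.38 ± 0.36 (SE, adjusted p 0.018) with the factor and 1.32 ± 0.32 (adjusted p 0.0027) without it. It passed in PC at 3 dpci as well (1.36 ± 0.33 SE, adjusted p 0.0075). cyc1, cytochrome c1, held only 5, 11, 21, 38 and 41 reads in PC at 1 dps and 6, 6, 6, 7 and 12 at 1 dpci, where its log2 change was -2.4 ± 0.63 (SE, adjusted p 0.02). Its model overlaps ywhabb on the same strand, and reads of the overlap could belong to either.

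Cytochrome c is the soluble carrier between complexes III and IV. The gene in this annotation, cycsb, measured 2993, 3272 and 4643 CPM in uninjured SF, 4346, 5204, 6102, 9771 and 11838 at 1 dps, 1484, 1567, 1864, 2250.4 and 3672 at 7 dpci and 3921, 3985, 4672, 4895 and 5918 at 30 dpci. In PC it measured 1919.9, 1949 and 2116 uninjured, 3182, 3689, 3879, 5018 and 5583 at 1 dps, 437, 607, 778, 998 and 1024 at 7 dpci and 1097, 1254, 1318, 1374 and 1922 at 30 dpci. One day after a sham operation most libraries exceeded the uninjured range in SF and all of them did in PC, and at 7 and 30 dpci all PC libraries but 1 lay below it. The fitted change in SF at 7 dpci was 1.08 ± 0.26 (SE, adjusted p 0.0077) with the factor and -0.75 ± 0.28 (adjusted p 0.056) without it, and thus had opposite signs in the 2 fits; its mean CPM was lower at 7 dpci than uninjured.

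Complex IV held genes that fell and genes that rose after injury. cox8b, the heart and skeletal muscle form of subunit 8 in mammals (chromosome 24), measured 4787, 4932 and 6784 CPM in uninjured SF, 626, 753, 935, 941 and 1106 at 7 dpci and 2220.4, 3068, 3314, 5366 and 7869.8 at 30 dpci. PC hearts had 7236, 7963 and 8523 uninjured, 702, 824, 1137, 1722 and 2121 at 7 dpci and 4665, 5105, 5251, 5879 and 5997 at 30 dpci. The 7 dpci libraries lay far below the uninjured ones in both, at log2 -1.09 ± 0.32 (SE, adjusted p 0.036) with the factor and -2.66 ± 0.30 (adjusted p 1.7e-11) without it in SF. In PC the change was -1.28 ± 0.30 (SE, adjusted p 0.0062) with the factor and -2.60 ± 0.30 (adjusted p 4.8e-11) without it. cox4i2, the form that responds to low oxygen in mammals (chromosome 15; 3 other models overlap it), measured 253, 309 and 344 CPM in uninjured SF, 95.2, 106, 123, 130.3 and 133 at 1 dps, 11.1, 13.2, 25.5, 27.2 and 28.1 at 1 dpci, 21.4, 27.6, 33.2, 43.5 and 51.1 at 7 dpci and 40.2, 74.8, 98.8, 144 and 168 at 30 dpci. In PC it measured 572, 759 and 856 uninjured, 252, 318, 329, 329.6 and 408 at 1 dps, 98.9, 99.2, 119, 119 and 153 at 1 dpci, 91.9, 100.4, 113, 129 and 135 at 7 dpci and 328, 334, 385, 442 and 511 at 30 dpci. Sham-operated libraries thus lay below the uninjured ones, and injured ones at 1 dpci below the shams, in both populations. It was the complex IV gene that fell most in SF at 1, 7, 14 and 30 dpci with the factor, by log2 -2.01 ± 0.34 (SE, adjusted p 9.1e-05), -2.0 ± 0.45 (SE, adjusted p 0.0035), -1.72 ± 0.39 (SE, adjusted p 0.0044) and -1.31 ± 0.33 (SE, adjusted p 0.0067). COX7A2L, a protein that links complexes III and IV in mammals, fell in SF at 7 dpci from 213, 226 and 232 to 54.1, 70.8, 93.9, 96.5 and 113 CPM (-1.01 ± 0.29 SE, adjusted p 0.034). In PC the lowest group mean of COX7A2L lay at 7 dpci too, at 72.3 CPM. At 1 dpci against 1 dps it passed as lower in PC, at log2 -0.78 ± 0.21 (SE, adjusted p 0.022) with the factor and -0.94 (adjusted p 4.5e-04) without it.

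cox7a2a and cox6a1 of complex IV were higher at 7 dpci than in uninjured SF in both fits, and likewise at 3 dps. cox7a2a, the form of subunit 7a found in most tissues (chromosome 9), measured 379, 379 and 399 CPM in uninjured SF, 690.5, 837, 861, 877 and 1169 at 7 dpci and 813, 815, 911, 1032 and 1280.3 at 14 dpci, with no overlap of the injured and the uninjured groups. Its log2 change at 7 dpci was 1.73 ± 0.30 (SE, adjusted p 4.8e-05) with the factor and 1.20 ± 0.24 (adjusted p 7.0e-05) without it. In PC the uninjured libraries (454, 634 and 666) and those at 7 dpci (453, 469.8, 604, 731 and 986) overlapped. cox6a1, likewise the form of most tissues (chromosome 6), measured 107, 112 and 113 CPM in uninjured SF and 212, 274, 290.0, 312 and 383 at 7 dpci, and in PC 81.8, 112 and 113 uninjured and 124, 194, 195, 201 and 217 at 7 dpci. Its groups did not overlap in either population, and it passed in SF in both fits (1.21 ± 0.27 SE, adjusted p 0.0031 with the factor and 1.41 ± 0.21, adjusted p 2.2e-07 without it), while in PC it passed without the factor only (0.86 ± 0.21, adjusted p 0.0015). After a sham operation in SF, at 3 dps, the log2 change of cox7a2a was 1.36 ± 0.24 (SE, adjusted p 1.3e-04) with the factor and 1.11 ± 0.24 (adjusted p 0.0012) without it. That of cox6a1 was 1.03 ± 0.22 (SE, adjusted p 0.0019) with the factor and 1.13 ± 0.21 (adjusted p 1.4e-04) without it. COX5B (chromosome 6), the minor copy of subunit 5b in these hearts, rested on 5, 10 and 11 reads in uninjured SF, 49, 66, 77, 96 and 99 at 7 dpci and 67, 84, 91, 98 and 107 at 14 dpci. Its log2 change at 14 dpci was 1.91 ± 0.47 (SE, adjusted p 0.0094) with the factor and 2.72 ± 0.43 (adjusted p 2.3e-06) without it. Uninjured ventricles had the lowest group mean of COX5B in PC as well as in SF.

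cox6b1, a subunit on the side of complex IV that faces cytochrome c (scaffold APWO02001130.1), moved differently in the populations. In SF it measured 818, 934 and 942 CPM uninjured, 618, 1074, 1099, 1172 and 2165 at 1 dps, 190.4, 309, 309.9, 348 and 406 at 1 dpci, 911, 954, 1113, 1425 and 1496 at 7 dpci and 1549.7, 1752, 1972, 2049.7 and 2341 at 30 dpci. PC ventricles had 773, 774 and 1453 uninjured, 464, 562, 587, 632 and 1015 at 1 dps, 364, 467, 503, 624 and 908 at 1 dpci, 219.8, 311, 329, 332 and 371 at 7 dpci and 536, 600.2, 784, 908 and 1088 at 30 dpci. In SF the low point was 1 dpci and all libraries at 30 dpci exceeded the uninjured ones; in PC the low point was 7 dpci. At 1 dpci against 1 dps its log2 change was -1.36 ± 0.26 (SE, adjusted p 6.7e-04) with the factor and -1.97 ± 0.28 (adjusted p 1.4e-07) without it in SF and 0.39 ± 0.26 (SE, adjusted p 0.55) in PC.

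The abundant genes cox6c of complex IV and atp5l and atp5mf of complex V had lower mean CPM at 7 dpci than uninjured. cox6b2, also abundant in complex IV, had its lowest group mean at 1 dpci in SF and at 7 dpci in PC. In SF at 7 dpci, 2 of 19 complex V genes were higher and 0 lower with the factor, beside 3.3% of all genes. Without it 0 were higher and 13 lower, beside 16.0%. Of 20 complex IV genes, 5 were higher and 3 lower with the factor, and 3 and 10 without it. cox6c measured 5545 ± 869, 3342 ± 869 and 7853 ± 2419 CPM in SF uninjured, at 7 and at 30 dpci, and 6578 ± 997, 2714 ± 1189.9 and 6492 ± 1125 in PC. atp5l, a membrane subunit of the ATP synthase whose model overlaps ift22, measured 8636 ± 605, 2936 ± 581 and 7282 ± 1992 CPM in SF and 8144 ± 1048, 2641 ± 1193 and 5928 ± 771 in PC. atp5mf measured 3378 ± 844, 2316 ± 506 and 4975 ± 1226 CPM in SF and 3765 ± 772, 1414 ± 606 and 3038 ± 459 in PC. At 30 dpci atp5l was the one of cox6c, atp5l and atp5mf with a lower mean than uninjured in SF, by less than the SD at 30 dpci. atp5f1b, the catalytic beta subunit (chromosome 5), measured 3002, 3310.0, 3825, 4034 and 4088 CPM in SF at 3 dps and 1268, 1388, 1496, 1800.1 and 2149.6 at 3 dpci, and in PC 3074, 4044, 4135, 4565 and 4655 at 3 dps and 1587, 1768, 2186, 2469 and 2479.8 at 3 dpci. The groups did not overlap in either population, at log2 -0.94 ± 0.19 (SE, adjusted p 2.9e-04) with the factor and -1.17 ± 0.19 (adjusted p 2.3e-06) without it in SF. The change in PC was -0.80 ± 0.18 (SE, adjusted p 0.0041) with the factor and -0.96 ± 0.19 (adjusted p 3.3e-04) without it.

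Counted over all 60 genes, more of these genes were lower than higher at 1 and 3 dpci in SF, and in PC mainly without the factor. With the factor, only 2 genes were lower in PC at each of these times. In SF at 6 hpci against 6 hps, edgeR called 0 genes (3 at an unadjusted p under 0.05, and 0 with DESeq2) beside 0.858% of all genes, and without the factor 2 were lower beside 2.18%. At 1 dpci, 1 gene was higher and 6 were lower beside 1.71% of all genes, and without the factor 1 and 38 beside 7.5%. At 3 dpci, 1 was higher and 13 lower beside 7.46%, and without the factor 0 and 26 beside 11.4%. In PC, 1 gene was lower at 6 hpci beside 2.87%, 2 were lower at 1 dpci beside 2.09%, and 1 was higher and 2 lower at 3 dpci beside 3.25%. Without the factor, 3 were lower in PC at 6 hpci beside 4.49%, 26 at 1 dpci beside 6.22% of all genes, and 1 was higher and 19 lower at 3 dpci beside 5.55%. The share of members lower at 1 and 3 dpci thus exceeded that of all genes in both fits in SF, and in PC mainly without the factor. Leave-one-out counts here drop 1 replicate number from each group that has it. Uninjured SF libraries are numbered 1, 2 and 3 and uninjured PC libraries 1, 3 and 5, so that dropping 1 or 3 takes an uninjured library from both populations, 2 from SF, 5 from PC and 4 from neither. With the factor, this gave 1 to 30 genes at 1 dpci and 4 to 28 at 3 dpci in SF, and 0 to 9 and 0 to 27 in PC, with the highest values without replicate 2.

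At 7 dpci against uninjured ventricles the 2 fits parted. With the factor, 10 genes were higher and 3 lower in SF beside 3.3% of all genes, and 0 were higher and 13 lower in PC beside 2.72%. The median log2 change over the 60 genes was 0.26 in SF and -0.46 in PC, beside 0.07 and 0.04 over all genes. Without it, 4 were higher and 29 lower in SF beside 16.0%, and 1 was higher and 50 lower in PC beside 13.8%, with medians of -0.64 and -1.31. For PC the direction was the same in both fits; for SF the median changed sign. In PC, 5 of 20 genes of complex IV, 3 of 12 of complex III, 2 of 19 of complex V, 2 of 4 of complex II and 1 of its 4 assembly factors were lower in both fits. In SF the 3 genes lower in both were cox4i2, cox8b and COX7A2L and the 2 higher in both cox7a2a and cox6a1. Leaving 1 replicate number out gave 6 to 10 genes in SF and 2 to 38 in PC with the factor, 2 without replicate 1 and 38 without replicate 2.

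**Figure D3:**
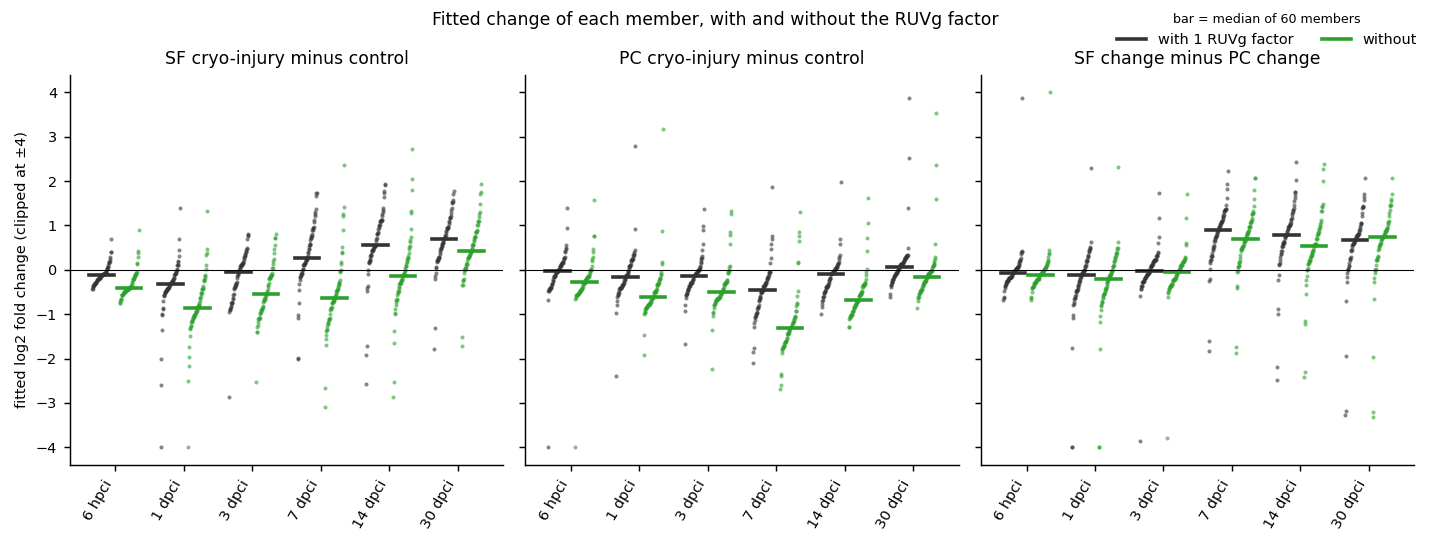
Fitted log2 change of each of the 60 genes with and without the RUVg factor, clipped at 4 in either direction, for cryo-injury in SF, in PC and for their difference, by time; points are genes and bars medians. The median of SF at 7 dpci is 0.26 with the factor and -0.64 without it, while that of the difference between the populations at 7 dpci is 0.89 and 0.69.

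At 30 dpci genes stood above the uninjured level in SF, and no gene passed in PC. At 14 dpci in SF, 18 genes were higher and 1 lower beside 2.84% of all genes, and without the factor 5 and 9 beside 9.61%. At 30 dpci, 32 were higher and 1 lower beside 4.76%, and without the factor 14 and 1 beside 4.58%; the 14 were all among the 32. These 14 were UQCR11, uqcrq, uqcrh, uqcrc1 and uqcrc2b of complex III, cox4i1, cox6a1, cox6b1, cox7a2a, COX7A2, cox7b and COX5B of complex IV, atp5mea of complex V and sdhaf2. Of these 14, UQCR11, uqcrq, cox6a1, cox7a2a, COX7A2 and COX5B had their lowest SF group mean in uninjured ventricles, so the sham means lay above it too. cox6a1, cox6b1 and cox7a2a also passed as higher in SF at 3 dps against uninjured in both fits. The gene lower at 30 dpci in both fits was cox4i2. In PC at 14 dpci, 1 gene (sdhaf4) was lower beside 0.464%, and without the factor 19 were lower beside 2.4%. At 30 dpci in PC edgeR called 0 genes beside 0.517% of all genes, 6 at an unadjusted p under 0.05, and DESeq2 called 1. Without 1 replicate number the count in SF lay between 8 and 15 at 14 dpci, and at 30 dpci between 10 (without replicate 3) and 33.

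From 3 to 7 dpci, 1 gene passed as higher (cox6b1) and 1 as lower (cox8b) in SF beside 6.66% of all genes. Without the factor 0 passed as higher and 1 as lower, beside 5.75%. In PC 0 passed as higher and 5 as lower beside 2.73%, and without the factor 0 and 16 beside 2.67%. The 5 were led by sdhaf4 (-0.87 ± 0.22 SE, adjusted p 0.011), atp5meb (-0.75 ± 0.19 SE, adjusted p 0.01) and ATP5MC2 (-0.56 ± 0.16 SE, adjusted p 0.032). From 7 to 30 dpci, 5 genes passed as higher in SF beside 2.11% and 13 in PC beside 4.12%, and 0 passed as lower in either. Without the factor these were 49 higher and 1 lower beside 12.3% in SF and 50 and 1 beside 12.7% in PC. UQCR11 led in SF (1.48 ± 0.32 SE, adjusted p 0.003) and sdhaf4 in PC (1.56 ± 0.25 SE, adjusted p 1.5e-05). Without 1 replicate number the counts from 7 to 30 dpci were 0 to 31 in SF and 6 to 43 in PC, both highest without replicate 2. After a sham operation, at 3 dps against uninjured, 19 were higher in SF beside 3.02%, and without the factor 4 were higher and 2 lower beside 5.27%, while in PC 4 were higher and 1 lower beside 1.37% (2 and 5 without the factor, beside 2.81%). In SF cox6b1 changed by log2 1.64 ± 0.30 (SE, adjusted p 2.1e-04) at 3 dps and 1.73 ± 0.37 (SE, adjusted p 0.0017) at 7 dpci with the factor. Without the factor the changes were 1.03 (adjusted p 0.037) and 0.39 (adjusted p 0.44), so that at 7 dpci it did not pass. With the factor, the gene lower in PC at 3 dps was sdhaf4. cox6a1 was higher there, at log2 0.79 ± 0.21 (SE, adjusted p 0.033) with the factor and 0.86 (adjusted p 0.0077) without it.

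The next question was where SF and PC differed at the same condition. In uninjured ventricles, 2 genes were higher in SF and 33 lower beside 6.53% of all genes with the factor, and 2 and 4 beside 6.05% without it. At 6 hps, 1 dps and 3 dps, 2, 2 and 1 genes were higher in SF and 20, 26 and 10 lower, beside 8.12%, 8.99% and 8.21% of all genes. Without the factor 6, 5 and 5 were higher and 2, 3 and 3 lower, beside 7.17%, 9.28% and 9.25%. At 6 hps sdhaf1, an assembly factor of complex II, was among the 3 genes that passed as lower in SF with the largest differences, at log2 -1.45 ± 0.36 (SE, adjusted p 0.0034) with the factor and -0.82 ± 0.32 (adjusted p 0.11) without it. At 6 hpci, 1 dpci and 3 dpci, 2, 3 and 3 were higher in SF and 25, 31 and 14 lower, beside 9.04%, 10.2% and 8.44%. Without the factor the counts were 6, 2 and 6 higher and 4, 6 and 4 lower, beside 8.71%, 8.07% and 8.55%. At 7, 14 and 30 dpci 7, 7 and 4 genes were higher in SF and 5, 8 and 8 lower, beside 6.67%, 10.5% and 8.04% of all genes. Without the factor the balance was the other way, with 22, 16 and 25 higher in SF and 1, 3 and 1 lower, beside 7.71%, 9.03% and 8.7%. The balance of directions between the populations therefore depended on the factor; cox7a2l, cox6a1 and UQCRFS1 were higher and cox4i2 lower in SF at 30 dpci in both fits.

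Whether injury changed a gene differently in the 2 populations was tested as the difference of the changes. The change in SF minus the change in PC called 0 of the 60 genes at 6 hpci (2 at an unadjusted p under 0.05, and 0 with DESeq2) beside 0.0% of all genes, and 0 at 3 dpci (3 at an unadjusted p under 0.05, 0 with DESeq2) beside 0.117%. At 1 dpci it called cox6b1 alone, lower in SF, beside 0.341%. At 7 dpci 17 genes had a higher change in SF and 0 a lower one, beside 1.0% of all genes. The same counts, 17 and 0, held at 14 dpci beside 0.986%, and 6 and 0 at 30 dpci beside 0.4%. Without the factor 2, 5 and 2 genes passed, all higher in SF, beside 0.464%, 0.597% and 0.219%. The median over the 60 genes stayed on the SF side in both fits, at 0.89 and 0.69 for 7 dpci, 0.79 and 0.53 for 14 dpci and 0.68 and 0.74 for 30 dpci (with and without the factor), beside 0.03, 0.02 and 0.02 over all genes. All 3 comparisons share the uninjured ventricles, 3 in each population. With the factor, the median SF to PC difference of the 60 genes was -0.98 in uninjured ventricles. At 7, 14 and 30 dpci it was -0.04, -0.05 and -0.27, so that SF did not stand above PC after injury in that fit. Without the factor the median was -0.16 uninjured and 0.48, 0.40 and 0.47 at those times. Leaving out 1 replicate number gave 1 to 23 genes at 7 dpci, 1 to 15 at 14 dpci and 0 to 9 at 30 dpci, with the lowest value without replicate 3, which drops 1 uninjured library in each population, and the highest without replicate 4, which drops none, at each time.

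cox6b1 and uqcrq were the 2 genes whose changes differed at 7 dpci in both fits, at log2 2.24 ± 0.39 (SE, adjusted p 2.0e-04) with the factor and 2.07 ± 0.44 (adjusted p 0.0059) without it for cox6b1. For uqcrq the difference was 1.83 ± 0.37 (SE, adjusted p 0.0026) with the factor and 1.79 ± 0.37 (adjusted p 0.0042) without it. At 14 dpci UQCR11 differed most (2.43 ± 0.41 SE, adjusted p 1.3e-04 with the factor and 2.39 ± 0.41, adjusted p 1.9e-04 without it), and uqcrq, cox7a2a, UQCRFS1 and sdhdb passed in both fits as well. UQCRFS1, a Rieske iron-sulfur protein gene of complex III whose model overlaps C19orf12 and 1 unnamed gene, measured 35.3, 61.4 and 61.5 CPM in uninjured SF and 59.7, 63.6, 69.3, 83.7 and 106 at 14 dpci, against 32.2, 63.3 and 74.9 uninjured and 19.5, 27.8, 29.1, 33.9 and 42.0 at 14 dpci in PC. At 30 dpci UQCR11 and uqcrq passed in both fits, at 2.06 ± 0.41 (SE, adjusted p 0.0022) and 1.58 ± 0.37 (SE, adjusted p 0.019) with the factor. Both had their lowest SF group mean in uninjured ventricles. sdhaf2 passed at 7, 14 and 30 dpci with the factor (1.62 ± 0.43 SE, adjusted p 0.033, 1.69 ± 0.43 SE, adjusted p 0.032 and 1.70 ± 0.42 SE, adjusted p 0.034) and at none of them without it. At 1 dpci cox6b1 passed in both, at -1.75 ± 0.33 (SE, adjusted p 0.0028) with the factor and -1.79 ± 0.38 (adjusted p 0.014) without it, so the sign of its difference at 1 dpci was opposite to that at 7 dpci.

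Because a ratio of 2 genes within 1 library needs no scaling between libraries, the paired forms of a subunit were compared directly. The RUVg factor was not used in these ratios, and it does not cancel in them, as its effect differs by gene. In SF at 7 dpci the log2 change of cox8b was -1.09 with the factor and -2.66 without it. That of cox7a2a was 1.73 and 1.20. For 10 pairs in 9 comparisons each, log2 ratios of reads (pseudocount 0.5) were tested with an exact two-sided permutation test over libraries, and 33 of the 90 tests passed after Benjamini-Hochberg adjustment over the 90. The smallest p that 5 against 5 libraries allow is 0.0079 and that of 3 against 5 is 0.036. The comparisons of 7 dpci with uninjured ventricles reached that smallest p in several pairs and an adjusted p of 0.057, so none of them passed; their values are given as descriptions. Of the 10 pairs, 3 (cox4i1 with cox4i1l, cox5b2 with COX5B, and atp5mc3b with ATP5MC2) were added after the symbols and mean levels of the genes had been seen; with the other 7 alone, 25 of 63 tests passed.

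The ratio of the muscle form of subunit 7a to the common form was low at 7 dpci and rose by 30 dpci, in both populations. cox7a1 over cox7a2a had a mean log2 ratio of 3.12 ± 0.17 (SD, n = 3) in uninjured SF, 0.58 ± 0.23 at 7 dpci and 2.42 ± 0.25 at 30 dpci (n = 5 each). In PC the same ratio was 2.64 ± 0.22, 0.56 ± 0.32 and 2.18 ± 0.19. It was also below the uninjured mean after a sham operation, at 1.98 ± 0.43 in SF and 1.80 ± 0.15 in PC at 1 dps. At 1 dpci it was 0.66 ± 0.65 in SF and 0.87 ± 0.13 in PC. From 7 to 30 dpci it rose by 1.84 (exact p 0.0079, adjusted p 0.023) in SF and 1.62 (exact p 0.0079, adjusted p 0.023) in PC, and no library at 30 dpci overlapped one at 7 dpci. cox7a1 over COX7A2 rose likewise, by 0.87 (exact p 0.0079, adjusted p 0.023) and 1.13 (exact p 0.0079, adjusted p 0.023). In levels, cox7a1 stood at 3024, 3324 and 3778 CPM in uninjured SF, 1063, 1080.1, 1329, 1577 and 1594 at 7 dpci and 3462, 4014, 4094, 4946 and 5809.6 at 30 dpci. In PC it stood at 3268, 3364 and 4243 CPM uninjured, 570.0, 591, 958, 1279 and 1566 at 7 dpci and 2238, 2582, 2769.9, 3117 and 3412 at 30 dpci. At 7 dpci cox7a1 was thus lower in both populations, while cox7a2a, given above, was higher in SF and overlapped its uninjured range in PC.

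**Figure D4:**
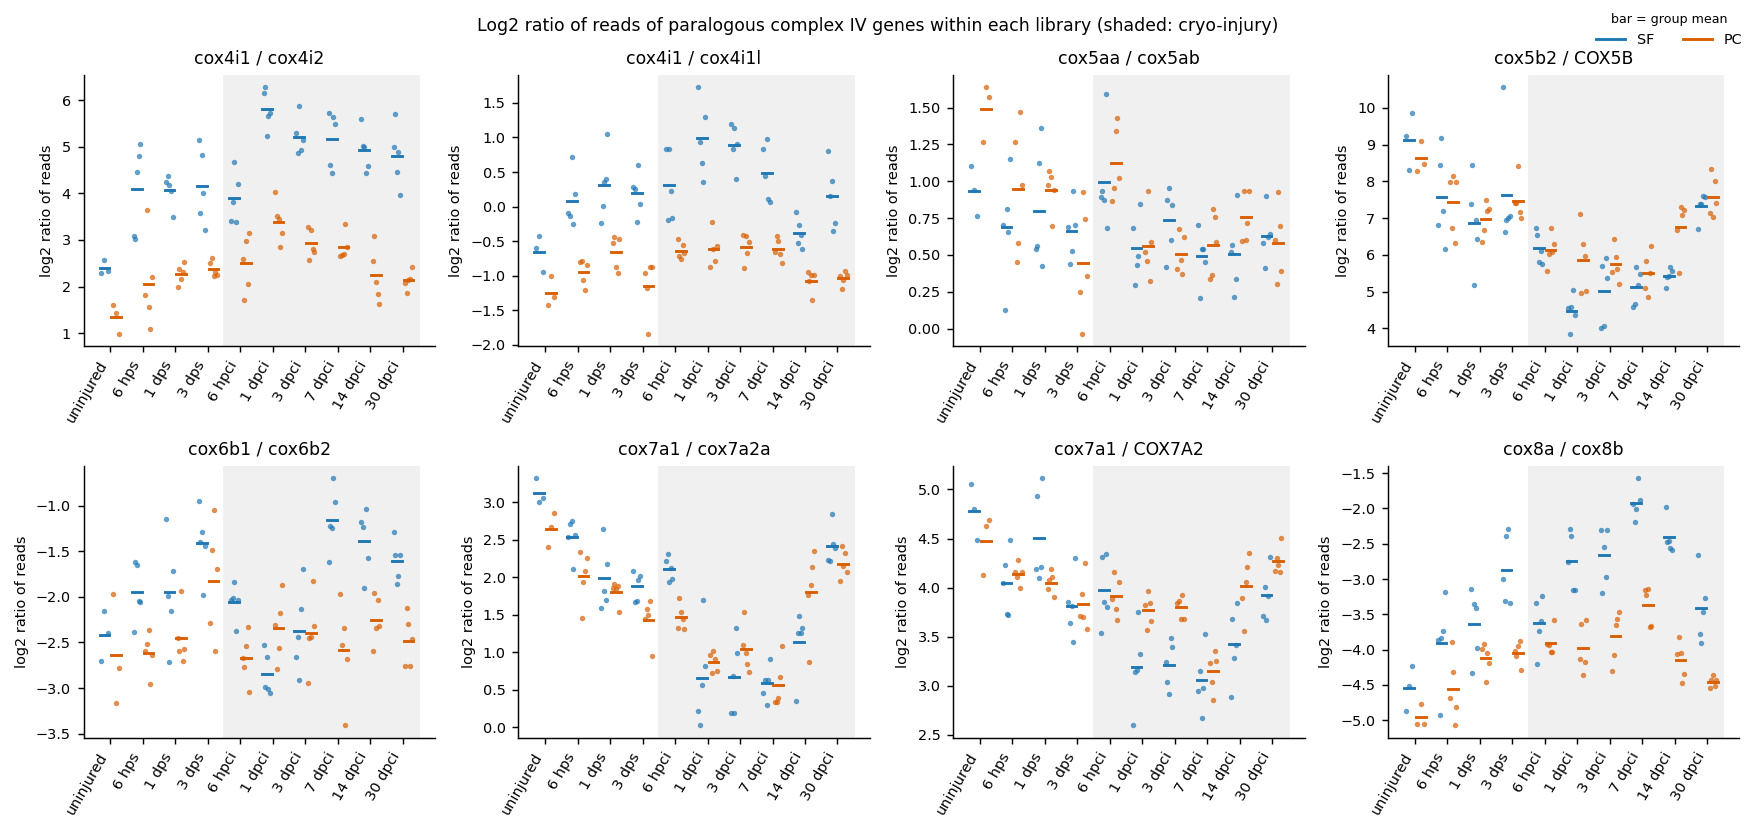
Log2 ratio of reads of 2 forms of a complex IV subunit in each library, by condition, for 8 pairs in SF and PC. Points are libraries and bars are group means. The ratios of cox7a1 to cox7a2a and of cox5b2 to COX5B dip after injury in both populations and rise again by 30 dpci. Their group means at 1 dps lie below the uninjured ones too. The group mean of cox4i1 to cox4i2 is higher in SF than in PC in each of the 10 conditions.

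In cox8a over cox8b the muscle form is the denominator, and this ratio fell from 7 to 30 dpci. Its mean log2 ratio was -4.54 ± 0.31 in uninjured SF, -1.92 ± 0.23 at 7 dpci and -3.42 ± 0.49 at 30 dpci. The PC values in the same order were -4.96 ± 0.16, -3.37 ± 0.27 and -4.46 ± 0.07. After a sham operation it was above the uninjured mean too, at -3.64 ± 0.49 in SF and -4.12 ± 0.22 in PC at 1 dps. From 7 to 30 dpci it fell by 1.50 in SF and 1.08 in PC (exact p 0.0079 and adjusted p 0.023 for both). The ratio was higher in SF than in PC at 7, 14 and 30 dpci, by 1.46, 1.74 and 1.04, with no overlap of the libraries (adjusted p 0.023 each). cox8a overlaps otub1a on the same strand, and reads of the 2 could not be told apart there.

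cox5b2 is the main copy of subunit 5b and COX5B the minor one, and their ratio was low after injury. Its mean log2 value was 9.14 ± 0.78 in uninjured SF, 6.88 ± 1.20 at 1 dps, 4.49 ± 0.43 at 1 dpci, 5.12 ± 0.48 by 7 dpci and 7.34 ± 0.36 by 30 dpci. The PC values for these conditions, in the same order, were 8.62 ± 0.43, 6.99 ± 0.46, 5.87 ± 0.90, 5.50 ± 0.55 and 7.58 ± 0.57. At 1 dpci against 1 dps it differed by -2.39 (exact p 0.0079, adjusted p 0.023) in SF, and in PC by -1.12 (exact p 0.04, adjusted p 0.062). From 7 to 30 dpci it rose by 2.22 (exact p 0.0079, adjusted p 0.023) and 2.07 (exact p 0.0079, adjusted p 0.023). cox5b2 itself measured 3593, 4043 and 4120.2 CPM in uninjured SF and 1092, 1101, 1127, 1231 and 1532 at 7 dpci, and in PC 4583, 5588 and 6185 uninjured and 717, 859, 1022, 1067 and 1683 at 7 dpci. COX5B held 4 to 117 reads per library, so that its counting error enters the ratio.

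Other complex IV pairs differed between the populations. cox4i1 over cox4i2 had a mean log2 ratio of 2.40 ± 0.14 in uninjured SF and 1.34 ± 0.32 in uninjured PC, and was higher at 1 dpci than at 1 dps by 1.74 (exact p 0.0079, adjusted p 0.023) in SF and 1.12 (exact p 0.0079, adjusted p 0.023) in PC. At 7, 14 and 30 dpci it was higher in SF than in PC by 2.33, 2.69 and 2.67 (adjusted p 0.023 each, no overlap). From 7 to 30 dpci it fell by 0.71 in PC (adjusted p 0.023), and in SF it differed by -0.37 (exact p 0.36, adjusted p 0.44). cox4i1 over cox4i1l, another copy, was higher in SF than in PC at those times by 1.1, 0.69 and 1.18. cox6b1 over cox6b2 was higher in SF by 1.43, 0.86 and 0.88, without overlap, and stood at -2.42 ± 0.28 and -2.64 ± 0.61 in uninjured SF and PC, where the libraries overlapped. cox5aa over cox5ab passed only in PC at 1 dpci against 1 dps (-0.38, exact p 0.016, adjusted p 0.043). In complex V, atp5mc3b over ATP5MC2, genes of the rotor ring, was lower in SF than in PC at 7 dpci, with SF minus PC at -0.34 (adjusted p 0.023). cox4i1, cox4i1l, cox4i2 and COX7A2 overlap other genes, as do cox8a and ATP5MC2, and with the pairs that hold none of these, 12 of 45 tests passed.

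Some genes differed between the populations in nearly all conditions, and the values below were chosen for naming after they were seen where the naming rule does not cover them. atp5pd (chromosome 2, 11338363 to 11345568, plus strand), a copy of subunit d of the ATP synthase stalk, held 451 to 1531 reads in the 48 SF libraries and 0 to 712 in the 48 PC libraries. In 42 PC libraries it held 0 to 21 reads, and in 6 it held 236 to 712. Those 6 were 1 library at 6 hps (469 reads), 3 at 3 dps (301, 488 and 712), 1 at 3 dpci (236) and 1 at 30 dpci (260), at 132 to 448 CPM. The SF libraries ran from 165 to 1109 CPM, a range that holds 5 of the 6 and leaves 1 below. The other copy, ATP5PD on chromosome 12, had a mean of 1031 CPM over all libraries against 263 for atp5pd. At 6 hpci, where no PC library was among the 6, the SF to PC difference of atp5pd was log2 6.39 ± 1.06 (SE, adjusted p 3.9e-06). atp5pd passed in 2 comparisons within PC, as lower at 6 hpci against 6 hps and as higher at 3 dps against uninjured, and the 6 hps and 3 dps groups are those that hold 1 and 3 of the 6 libraries.

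uqcrc2a (chromosome 2, 8421816 to 8436809, minus strand), a copy of core protein 2 of complex III, showed the reverse. It held 115 to 584 reads in every PC library, 1 to 13 in 35 SF libraries and 80 to 343 in the other 13. Those 13 lay in 8 of the 10 SF groups, and none at 1 or 14 dpci. Its fall in SF at 1 dpci against 1 dps, log2 -5.30 ± 1.18 (SE, adjusted p 0.0042), compares a group with 0 such libraries with one that has 3 (160, 173 and 343 reads). The log2 ratio of uqcrc2a to uqcrc2b was lower in SF than in PC, with SF minus PC at -4.51, -6.26 and -4.52 at 7, 14 and 30 dpci (adjusted p 0.023 each). cox7a2l (chromosome 6, 20419269 to 20428083, plus strand) held 3 to 122 reads in SF and 0 to 24 in PC, with 6 PC libraries at 0, and passed as higher in SF in all 10 conditions in both fits. cox4i2 was lower in SF in all 10 conditions in both fits, with medians of 121.5 reads over the SF libraries and 390 over the PC libraries.

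**Figure D5:**
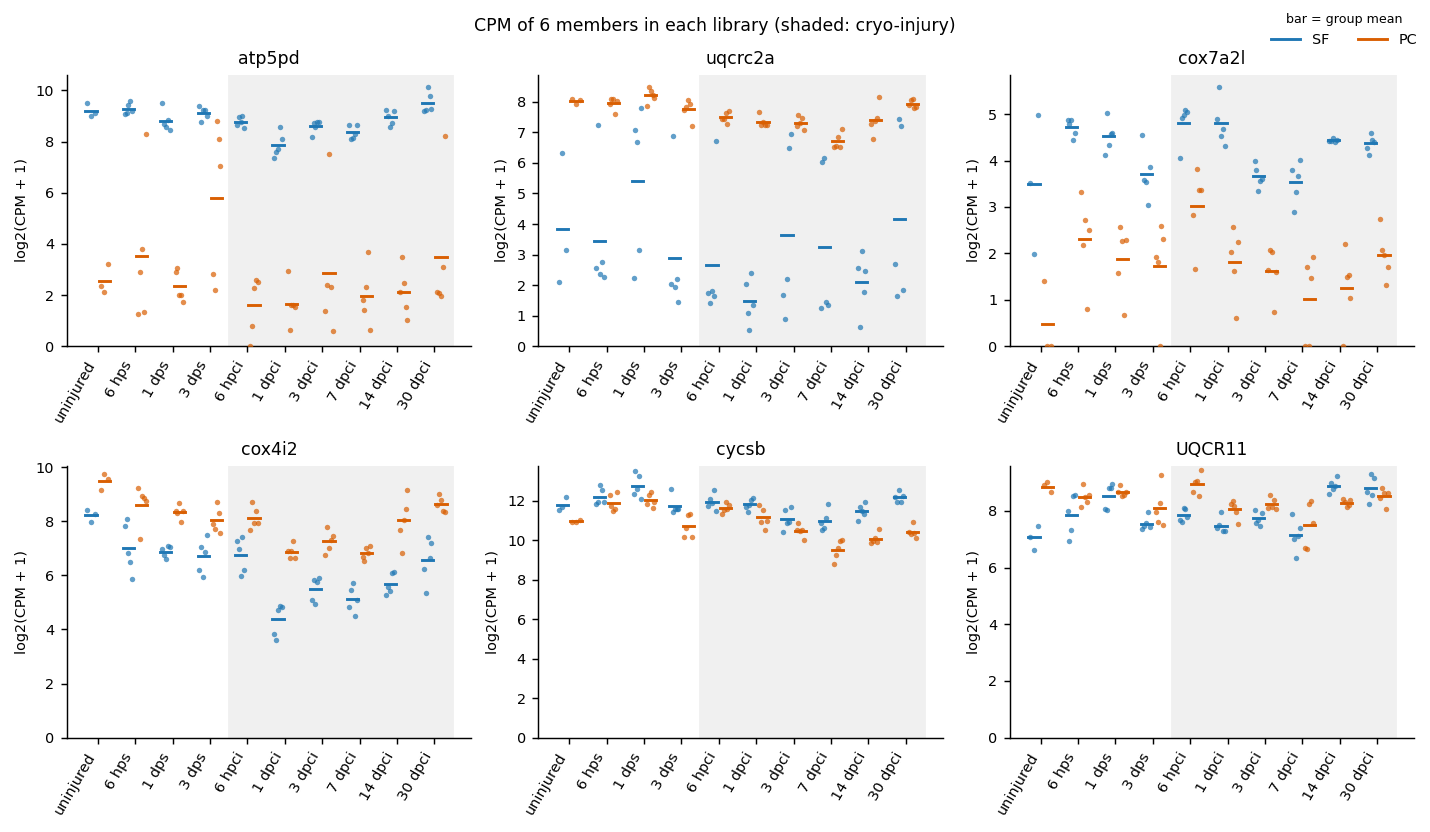
Log2 of CPM plus 1 of atp5pd, uqcrc2a, cox7a2l, cox4i2, cycsb and UQCR11 in each library, by condition, in SF and PC; points are libraries. atp5pd splits the PC libraries into 42 with at most 21 reads and 6 with 236 or more, and uqcrc2a splits the SF libraries into 35 with at most 13 reads and 13 with 80 or more.

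Genes that work beside complexes II to V were counted in the same fit, without a test of the list. With the factor, 2.72%, 3.3% and 4.76% of all genes passed in PC at 7 dpci and in SF at 7 and 30 dpci, in both directions. Without it these shares were 13.8%, 16.0% and 4.58%. Counts of 1 or 2 genes in the short lists below are not read as a result. Of 40 complex I genes tested, 0 were higher and 16 lower in PC at 7 dpci, and 1 and 36 without the factor. In SF at 7 dpci 0 passed in either direction with the factor (2 higher and 25 lower without it), and 21 were higher at 30 dpci (8 without). The change in SF exceeded that in PC for 13, 10 and 5 complex I genes at 7, 14 and 30 dpci with the factor and for 3, 2 and 2 without it. Of all genes, 1.0%, 0.986% and 0.4% passed in either direction with the factor and 0.464%, 0.597% and 0.219% without it. Of 27 assembly factors of complexes II to V, 1 was lower in PC at 7 dpci (15 without the factor) and 6 were higher in SF at 30 dpci (2 without). Of 15 citric acid cycle genes, 4 were lower in PC at 7 dpci (9 without) and 4 higher in SF at 30 dpci (1 without). Of 12 regulators of nuclear genes for mitochondria, such as the coactivator ppargc1a and the factors nrf1 and tfam, 1 was lower in PC and 1 in SF at 7 dpci (2 and 4 without the factor), and 0 were higher in either.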

How the data were processed

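Ventricles were extracted individually and sequenced from the 3′ end of transcripts (QuantSeq 3′ FWD). Per the labels and the methods of the study, reads were demultiplexed with bcl2fastq 2.20.0, trimmed with Trim Galore 0.6.4 and aligned with STAR 2.7.6a to the Mexican tetra 2.0 assembly with a customized Ensembl annotation; how strand was used in counting is not given in the sources used here. The authors deposited raw counts per gene, which are not normalized, and a table of regularized log2 values of the same libraries, from which only the gene symbols were taken. In that log2 table the authors' column of 1 PC library at 6 hpci holds a value beyond the range of log2 counts, and it is treated as a score. Both populations were aligned to 1 surface fish genome, so a sequence difference between populations can change counts.

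The deposited counts of 96 libraries in 20 groups were analysed in R 4.3.3 with edgeR 4.0.16 (TMM scaling, glmQLFit and glmQLFTest, Benjamini-Hochberg adjustment). A gene was tested if any library had 1 CPM or more of it, which kept 18763 of 27420 genes. The model held the 20 groups and 1 RUVg factor estimated from 9381 genes with a coefficient of variation below the median. Library totals of 672292 to 2586602 reads limit the precision of genes with few reads. Ratios of paired genes were tested by exact permutation with SciPy 1.17.1, and shares of reads are given as mean ± SD without a test. Scripts were tested on simulated data with 200 changed genes. Groups came from the sample labels, and each library is a separate fish.

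Alternatives were DESeq2 1.42.0, its size factors, 0 or 2 RUVg factors, other control genes, other filters, only the groups compared, a replicate block, leaving out each replicate number, another pseudocount and a required fold change above 2. Genes named with values are the 2 most abundant of each complex, members of the listed pairs, up to 3 with the largest rise and 3 with the largest fall per comparison, and cytochrome c; others given with values (sdhc and ATP5PD) or named in a list of genes that passed were chosen after their values were seen. The genes and lists were chosen with earlier results of these data known. Promoter motifs were not analysed here.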

Additional observations from a re-analysis of the deposited data

Results flagged for a closer look

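In groups of 5 libraries, a library was singled out when its gap to the nearest other was more than 0.71 of the range of the group. This happened in 11 of 208 groups, and chance gives about 1 in 20. Intervals are Wilson 95% intervals and cover counting error only.

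For complex III, replicate 2 of SF at 1 dps had a share of 0.829% of reads (0.815 to 0.843), above the 0.729 to 0.756% of the others. For cytochrome c, replicate 1 of SF at 3 dps had 0.50% (0.489 to 0.511) against 0.262 to 0.297%, replicate 3 of PC at 6 hpci 0.381% (0.372 to 0.390) against 0.303 to 0.318%, and replicate 5 of PC at 3 dpci 0.123% (0.117 to 0.128) against 0.174 to 0.192%. For all 60 genes, replicate 1 of SF at 14 dpci had 7.04% (7.01 to 7.08) against 7.79 to 7.93%.

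The same SF library at 14 dpci had a log2 ratio of cox7a1 to cox7a2a of 0.35 against 1.26 to 1.48 in the others, and of cox8a to cox8b of -1.97 against -2.59 to -2.46. Replicate 4 of PC at 7 dpci had a log2 ratio of cox4i1 to cox4i2 of 3.35 against 2.66 to 2.85. Replicate 5 of PC at 1 dps had one of cox7a1 to cox7a2a of 1.53 against 1.85 to 1.90. Replicate 1 of SF at 30 dpci had one of cox5b2 to COX5B of 6.72 against 7.39 to 7.61. Replicate 4 of PC at 30 dpci had one of atp5mc3b to ATP5MC2 of 1.67 against 1.26 to 1.37.

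The changes of 4 named genes differed between the populations by the interaction test of the edgeR model with the factor. For cox6b1 the log2 change in SF minus that in PC at 1, 7 and 14 dpci was -1.75, 2.24 and 1.76. For uqcrq it was 1.83 at 7 dpci and 1.58 at 30 dpci. For sdhaf2 it was 1.62, 1.69 and 1.70 at 7, 14 and 30 dpci, and for UQCR11 it was 2.43 at 14 dpci and 2.06 at 30 dpci. Without the factor sdhaf2 passed at none of these times and cox6b1 did not pass at 14 dpci.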

How the results depend on the processing

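The values below are numbers of the 60 genes that passed, with the comparison in parentheses; a count is said to have moved where it differed by more than 1.5 times. Without the RUVg factor, the counts that moved were, within a population 2 (SF 6 hpci), 39 (SF 1 dpci), 26 (SF 3 dpci), 33 (SF 7 dpci), 15 (SF 30 dpci), 3 (PC 6 hpci), 26 (PC 1 dpci), 20 (PC 3 dpci), 51 (PC 7 dpci), 19 (PC 14 dpci), 1 (SF 7 against 3 dpci), 50 (SF 30 against 7 dpci), 16 (PC 7 against 3 dpci), 51 (PC 30 against 7 dpci) and 6 (SF 3 dps), and between SF and PC 6 (uninjured), 8 (6 hps), 8 (1 dps), 10 (6 hpci), 8 (1 dpci), 10 (3 dpci), 23 (7 dpci) and 26 (30 dpci), and for the difference of the changes 2 (7 dpci), 5 (14 dpci) and 2 (30 dpci). With 2 RUVg factors, the counts that moved were, within a population 2 (SF 1 dpci), 0 (SF 3 dpci), 0 (PC 1 dpci), 0 (PC 3 dpci), 1 (PC 7 dpci), 0 (PC 14 dpci), 1 (SF 30 against 7 dpci), 17 (PC 7 against 3 dpci), 0 (PC 30 against 7 dpci) and 29 (SF 3 dps), and between SF and PC 23 (uninjured), 12 (6 hps), 4 (1 dps), 3 (3 dps), 22 (1 dpci) and 1 (3 dpci), and for the difference of the changes 11 (30 dpci). With DESeq2, the counts that moved were, within a population 18 (SF 1 dpci), 6 (PC 1 dpci), 9 (PC 3 dpci), 4 (PC 14 dpci), 1 (PC 30 dpci), 9 (PC 7 against 3 dpci), 28 (PC 30 against 7 dpci) and 8 (PC 3 dps), and for the difference of the changes 30 (7 dpci) and 12 (30 dpci). With only the groups compared in the fit, the counts that moved were, within a population 4 (SF 1 dpci), 0 (SF 3 dpci), 3 (SF 7 dpci), 3 (SF 14 dpci), 12 (SF 30 dpci), 2 (PC 6 hpci), 7 (PC 1 dpci), 0 (PC 3 dpci), 0 (PC 7 dpci), 0 (PC 14 dpci), 1 (PC 30 dpci), 0 (SF 30 against 7 dpci), 0 (PC 7 against 3 dpci), 0 (PC 30 against 7 dpci), 8 (SF 3 dps) and 2 (PC 3 dps), and between SF and PC 3 (uninjured), 5 (6 hps), 5 (1 dps), 6 (3 dps), 2 (6 hpci), 7 (3 dpci), 4 (7 dpci) and 1 (30 dpci), and for the difference of the changes 1 (6 hpci), 4 (1 dpci) and 20 (30 dpci). With 10 or more reads required in 5 or more libraries, the counts that moved were, within a population 1 (SF 1 dpci), 1 (SF 3 dpci), 8 (SF 7 dpci), 0 (PC 1 dpci), 0 (PC 3 dpci), 2 (PC 7 dpci), 4 (PC 14 dpci), 22 (SF 7 against 3 dpci), 2 (SF 30 against 7 dpci), 28 (PC 7 against 3 dpci) and 1 (PC 30 against 7 dpci), and between SF and PC 13 (uninjured), 10 (6 hps), 18 (1 dps), 24 (3 dps), 15 (6 hpci), 12 (1 dpci), 28 (7 dpci), 38 (14 dpci) and 32 (30 dpci), and for the difference of the changes 10 (7 dpci) and 21 (30 dpci). With no filter beyond 1 read, the counts that moved were, within a population 1 (PC 30 dpci), and between SF and PC 27 (3 dps), 29 (3 dpci) and 23 (30 dpci), and for the difference of the changes 2 (1 dpci) and 29 (7 dpci). With a fold change above 2 required as well, the counts that moved were, within a population 0 (SF 3 dpci), 14 (SF 30 dpci), 1 (PC 1 dpci), 1 (PC 3 dpci), 7 (PC 7 dpci), 0 (PC 14 dpci), 0 (SF 7 against 3 dpci), 2 (SF 30 against 7 dpci), 0 (PC 7 against 3 dpci), 8 (PC 30 against 7 dpci), 7 (SF 3 dps) and 2 (PC 3 dps), and between SF and PC 9 (6 hps), 11 (1 dps), 7 (3 dps), 12 (6 hpci), 21 (1 dpci), 6 (3 dpci), 7 (7 dpci), 8 (14 dpci) and 7 (30 dpci). With control genes free of these genes and of complex I, the counts that moved were, within a population 5 (PC 3 dpci) and 24 (PC 30 against 7 dpci). With DESeq2 size factors in edgeR, the counts that moved were, within a population 22 (PC 30 against 7 dpci).

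Leaving 1 replicate number out of each group that has it gave, within a population, 0 to 1 (SF 6 hpci), 1 to 30 (SF 1 dpci), 4 to 28 (SF 3 dpci), 6 to 10 (SF 7 dpci), 8 to 15 (SF 14 dpci), 10 to 33 (SF 30 dpci), 0 to 8 (PC 6 hpci), 0 to 9 (PC 1 dpci), 0 to 27 (PC 3 dpci), 2 to 38 (PC 7 dpci), 0 to 2 (PC 14 dpci), 0 to 0 (PC 30 dpci), 1 to 2 (SF 7 against 3 dpci), 0 to 31 (SF 30 against 7 dpci), 0 to 11 (PC 7 against 3 dpci), 6 to 43 (PC 30 against 7 dpci), 6 to 23 (SF 3 dps) and 1 to 8 (PC 3 dps) genes. Leaving 1 replicate number out of each group that has it gave, between SF and PC, 16 to 34 (uninjured), 9 to 18 (6 hps), 13 to 29 (1 dps), 5 to 11 (3 dps), 11 to 26 (6 hpci), 28 to 34 (1 dpci), 4 to 13 (3 dpci), 4 to 12 (7 dpci), 9 to 15 (14 dpci) and 2 to 12 (30 dpci) genes. Leaving 1 replicate number out of each group that has it gave, for the difference of the changes, 0 to 0 (6 hpci), 0 to 1 (1 dpci), 0 to 0 (3 dpci), 1 to 23 (7 dpci), 1 to 15 (14 dpci) and 0 to 9 (30 dpci) genes. Numbers 1 and 3 take an uninjured library from both populations, 2 from SF, 5 from PC and 4 from neither.

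Replicate numbers did not pair the libraries: over 121 pairs of same-numbered libraries the median correlation of their deviations from the group means was 0.005, and in 0 of 28 comparisons did every pair exceed 0.1. With the replicate block, the count for SF from 7 to 30 dpci was 3 in place of 5, and the counts for the difference of the changes at 7, 14 and 30 dpci were 12, 12 and 4.

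Of the 33 ratio tests that passed, 33 passed with a pseudocount of 1, and 25 of 63 tests passed with the 7 pairs of the first list and 12 of 45 with pairs free of overlapping genes; that last setting and the added pairs were chosen after seeing the data. Leaving out 1 replicate number left too few libraries for any ratio test to pass (0 of 90), and 0 of the 33 changed sign. With TMM-scaled library sizes 45 of 140 shares moved by more than 1 SD. Of 114 log2 changes, chosen as the largest passing rises and falls of each comparison, 91 stayed past the threshold without the factor. Another 23 did not, and 0 reversed. This does not hold for all genes that passed. Of 409 cases in which a gene passed in a comparison, 53 had the other sign without the factor. Among them was cycsb in SF at 7 dpci against uninjured, at log2 1.08 with the factor and -0.75 without it. The cause of these differences was not tested.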
